A study of Rattus norvegicus with 138 samples.

Results

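Whether running altered gene expression in injured muscle was examined in the tibialis anterior (TA) of rats 7 days after volumetric muscle loss (VML). VML is a severe trauma that takes away cells and structures needed for regeneration, and here it was made by surgery. The comparison held 24 injured muscles, out of 64 injured muscles of running and non-running rats with usable libraries at 3, 7 and 14 days in the series. Of these, 8 came from rats labelled Run and 16 from rats labelled NoRun. All were from inbred male Lewis rats of about 4 months that had received a full-thickness punch defect in the mid-portion of the left TA. In each group one part was left without repair (NoRepair, 4 Run and 8 NoRun muscles) and the other received a minced muscle graft (MMG, 4 Run and 8 NoRun muscles), which was cut from the excised tissue and put back into the defect. The kind of running, its amount and its starting day were not given in the sources used here. Members were taken by their labels for injury, running, repair and day, libraries with fewer than 7000 symbols above 1 TPM were left out, and libraries of one muscle were averaged.

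Muscle that loses part of its volume is cleared by neutrophils and macrophages and filled by fibroblasts that lay down collagen, while satellite cells, the stem cells of muscle, fuse into new fibers that first express embryonic myosin. Mechanical loading is known to raise immediate early genes and matrix genes in healthy muscle, and contraction drives a program of oxidative metabolism. Interferon-response genes are a coordinated antiviral set that macrophages and other cells switch on when they sense interferon.

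The 30 libraries of these muscles were reduced to 24 by the limit on symbols. The 6 libraries left out had 2378 to 4146 symbols above 1 TPM, and ribosomal RNA took 79.6% to 83.9% of their TPM. The libraries kept had 10477 to 10948 symbols above 1 TPM and at most 1.31% ribosomal RNA, except the library of rat TS5.011 (NoRun, no repair) at 16.7%. The day of this rat is in doubt, since its injured library and 1 contralateral library are labelled day 7 and another contralateral library, left without a group here, is labelled day 3. The sources used here give only an average read depth over all libraries and TPM keeps no depth, so no counting error could be attached to single values. The rat numbers of the 2 sides differed. All 8 running rats lay between TS5.003 and TS5.032, whereas 8 of the non-running rats lay between TS5.011 and TS5.024 and the other 8 between TS5.105 and TS5.128. These are called the lower range (up to TS5.032) and the upper range (from TS5.105). What the numbers stand for is not given in the sources used here, and the comparison was repeated within the lower range, with 8 muscles on each side.

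Running muscles were not set apart from non-running muscles as a whole. The first principal component of all tested genes held 46.2% of the variance and the second 11.2%. On the first, the running muscles reached from −13.2 (rat TS5.008) to 49.5 (rat TS5.031), while the non-running muscles of rats TS5.011 to TS5.024 lay between −6.30 and 33.0 and those of rats TS5.105 to TS5.128 between −49.2 and 6.53. The 2 ends of the component were thus held by a running muscle without repair and by the non-repaired muscles of rats TS5.125 and TS5.126, neither of which ran. Pearson's r of log2(TPM + 1) across genes had a median of 0.980 over the 28 pairs of running muscles, 0.986 over the pairs within each non-running range, and 0.983 over the 64 pairs of a running with a non-running muscle of rats TS5.011 to TS5.024.

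**Figure D1:**
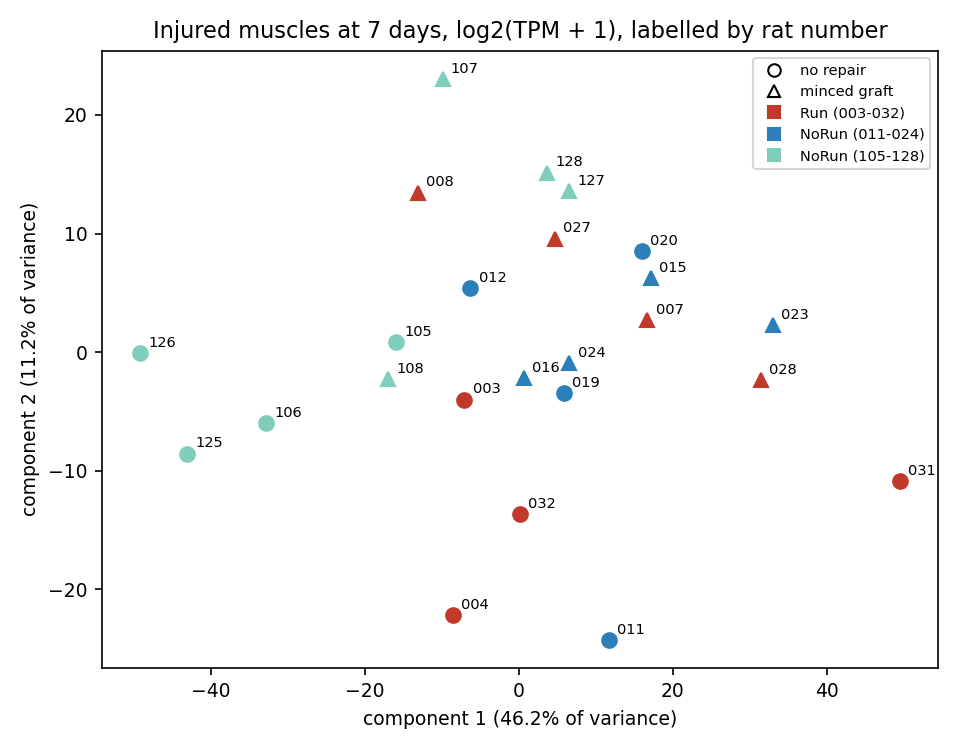
Principal components of log2(TPM + 1) over the 24 injured muscles at 7 days, with component 1 on the horizontal axis (46.2% of variance) and component 2 on the vertical axis (11.2%). Each point is 1 muscle labelled by the digits of its rat after TS5, colors give running and rat-number range, and shapes give repair; running muscles lie among the others, with rat TS5.031 at one end of component 1 and rats TS5.125 and TS5.126 at the other.

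The labelled tissue was met, with skeletal muscle identity genes summing to 41737 to 122860 TPM per muscle. The adult sarcomere genes, which encode the contractile apparatus of mature fibers, summed to 73942 TPM in rat TS5.031, the lowest of the 24 muscles, and to 225310 TPM in rat TS5.125, the highest. The matrix genes outside the fibrillar collagens summed to 29913 TPM in rat TS5.031, the highest, and to 7484 TPM in rat TS5.126, the lowest. In bulk tissue, fewer cells of a type and less RNA per cell cannot be told apart. Blood genes varied more still, from 2356 TPM in rat TS5.125 to 45245 TPM in the running rat TS5.004.

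Of 11016 genes tested with repair as a covariate, none was at an adjusted p under 0.05 between running and non-running muscles by limma (0 called, 0% of the genes tested), and the lowest adjusted p was 0.523. At an unadjusted p under 0.05 there were 1007 genes (9.14%), of which 450 had a higher and 557 a lower value in running muscles. No gene had running and non-running values that did not overlap. The 95% interval of the difference lay within 1 log2 unit either way for 10789 of the 11016 genes, with a median half-width of 0.19 log2 units. The median difference over all genes was 0.01 and the median size of a difference was 0.10 log2 units, against a median spread between muscles of one group of 0.22 (SD, log2). The count of 1007 was 448 without rat TS5.031, 449 without rat TS5.028, 1632 without rat TS5.023, 1659 without rat TS5.011 and 2047 without rat TS5.008.

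Within the lower range, again none of 11038 genes was called (0%), the lowest adjusted p by limma was 0.190, and 273 genes (2.47%) were at an unadjusted p under 0.05, with 109 higher and 164 lower in running muscles. With the rat-number range as a covariate over all 24 muscles, 377 genes were at an unadjusted p under 0.05. No running rat exists in the upper range, so range and running cannot be told apart for those 8 controls.

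Toward higher expression in running muscles, the lowest p belonged to Elavl1. Elavl1, which encodes an RNA-binding protein that stabilizes messages with AU-rich ends, ranged from 18.7 to 36.5 TPM in the running muscles with a median of 26.7, and from 14.8 to 26.03 with a median of 19.1 in the non-running muscles. Its difference was 0.42 log2 units (95% interval 0.21 to 0.63), and 0.39 (0.10 to 0.67) within the lower range. The groups overlapped, with 4 running muscles above every non-running one. Cdc42ep2, an effector of the actin regulator Cdc42, ranged from 19.3 to 25.3 TPM (median 22.02) against 16.2 to 22.03 TPM (median 18.04), a difference of 0.23 both over all muscles and within the lower range.

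Ctgf, a matrix-associated protein induced by TGF-β and by stretch, was at 127.5, 78.7, 214 and 70.8 TPM in the running muscles without repair (rats TS5.003, TS5.004, TS5.031 and TS5.032) and at 101.2, 63.6, 89.4 and 135.3 TPM in those with a graft (rats TS5.007, TS5.008, TS5.027 and TS5.028). The non-running muscles of rats TS5.011 to TS5.024 held 52.2 to 91.2 TPM and those of rats TS5.105 to TS5.128 held 31.01 to 81.1 TPM. Rat TS5.031 stood highest, and 4 of the 8 running muscles lay inside the non-running range. The difference was 0.74 log2 units (0.34 to 1.15), and 0.49 (0.08 to 0.91) within the lower range. Has2, the main hyaluronan synthase, ranged from 5.23 to 18.6 TPM (median 8.57) in running and from 3.15 to 7.57 TPM (median 5.66) in non-running muscles, with rats TS5.028 and TS5.031 the highest at 15.2 and 18.6 TPM. Its difference was 0.67 (0.29 to 1.04), and 0.50 (0.07 to 0.92) within the lower range. Sox9, the transcription factor of cartilage and tendon entheses, had a median of 5.20 TPM against 3.33 TPM and a difference of 0.38 (0.16 to 0.60). Its list, the tendon and cartilage genes, had a median difference of 0.40, and of 0.02 within the lower range. At an unadjusted p under 0.05, 3 of 10 were higher, and 1 within the lower range, beside 9.14% and 2.47% of all genes. With 1 muscle left out the 3 were 1 to 6, with 6 reached without rat TS5.008 (18.5% of all genes).

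The other genes among the 10 lowest p values in this direction were Snrpf of the spliceosome core, the IgM receptor Fcmr, the ubiquitin ligase Siah2, Sertad3, and the ribosomal protein gene Rps4x, with differences of 0.35, 0.51, 0.24, 0.32 and 0.27 log2 units. All 10 had an adjusted p of 0.523 by limma, and their order is therefore a description of these muscles.

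In the other direction the 10 genes were Rabl6, Cep131, Plb1, Gfod2, Mbd3, Nop14, Gtpbp6, Pomgnt2, Rhbdd1 and Poll, at the same adjusted p of 0.523, with differences between −0.46 and −0.19 log2 units. Rabl6, a Rab-like GTPase, ranged from 35.4 to 50.4 TPM (median 43.4) in running and from 42.4 to 55.5 TPM (median 50.3) in non-running muscles. Cep131, a centrosome and cilium component, ranged from 7.69 to 12.2 TPM (median 9.14) against 9.83 to 13.4 TPM (median 11.6). Mbd3, a subunit of the NuRD chromatin complex, ranged from 91.3 to 138.7 TPM (median 119) against 110.4 to 153.6 TPM (median 140.5). For each of these 3 genes the lowest running muscle lay below every non-running muscle and the groups overlapped. Pomgnt2, which glycosylates α-dystroglycan of the fiber membrane, differed by −0.28 (−0.45 to −0.11) over all muscles and by −0.18 (−0.38 to 0.02) within the lower range.

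**Figure D2:**
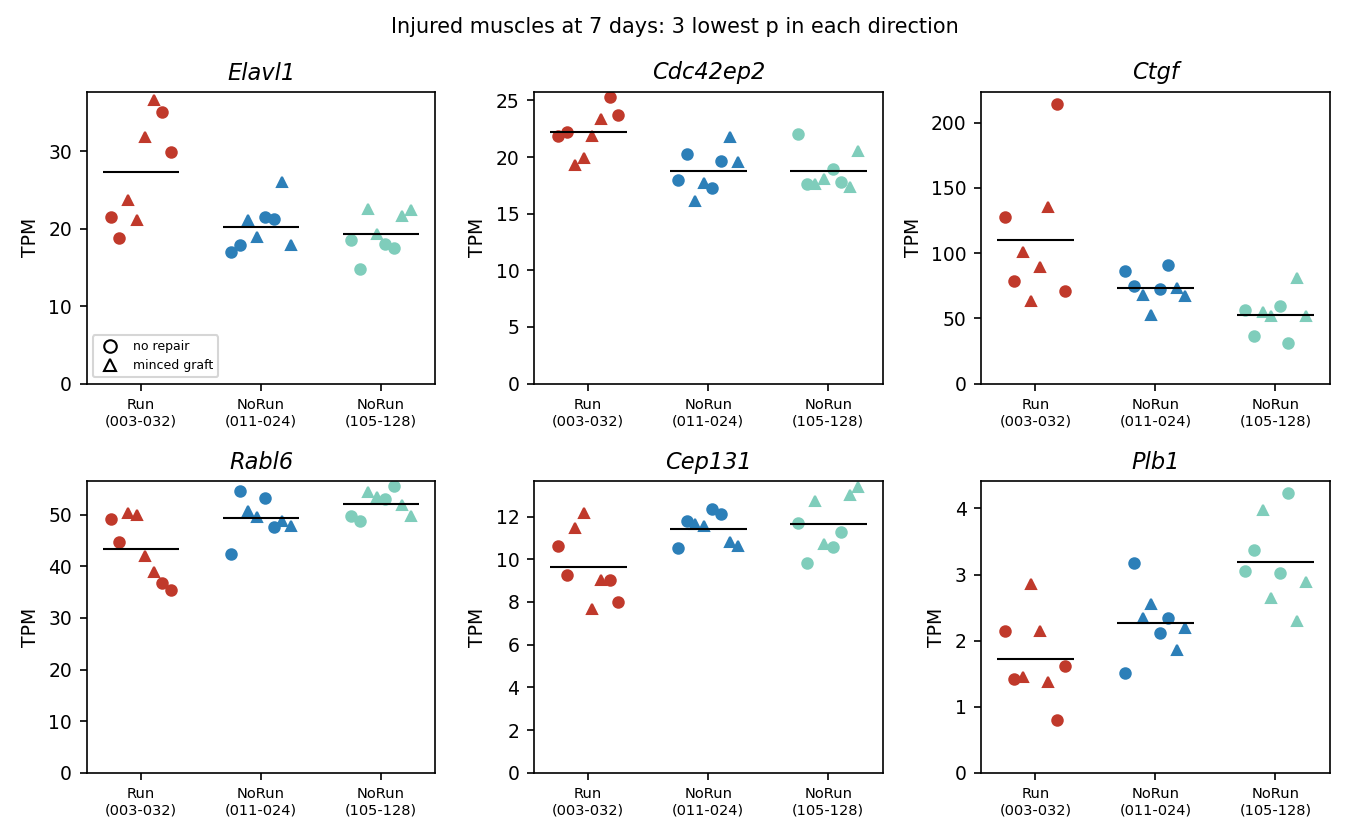
TPM (vertical axis, from 0) of the 3 genes with the lowest p in each direction in the injured muscles at 7 days, by running and rat-number range (horizontal axis). Each point is 1 muscle, circles are unrepaired and triangles grafted, and black lines are group means; every gene shows overlap between running and non-running muscles, and Plb1 is lower in the non-running rats TS5.011 to TS5.024 than in rats TS5.105 to TS5.128.

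The 37 gene lists held 678 tested genes, of which 76 (11.2%) were at an unadjusted p under 0.05, beside 9.14% of all genes. None of their members was called. Several matrix and immune lists had positive medians over all muscles. The fibrillar collagens had a median difference of 0.34 log2 units, with 2 of 8 tested members (Col1a1 and Col1a2) higher at an unadjusted p under 0.05. That count was 0 without rat TS5.007, TS5.028 or TS5.031 (9.26%, 4.08% and 4.08% of all genes) and reached 6 without rat TS5.027 (11.2%). The other matrix genes had a median of 0.32, with 7 of 30 higher and none lower. The MHC class II genes, which present antigen on macrophages and dendritic cells, had a median of 0.30 with 4 of 10 higher, and the macrophage genes had a median of 0.25 with none of 24 at that level. With 1 muscle left out the MHC class II count was 3 to 6 and the macrophage count 0 to 4. The 6 was reached without rat TS5.008 and the 4 without rat TS5.004, where 18.5% and 9.65% of all genes were at that level. Without rat TS5.031 the medians of the 2 lists were 0.18 and 0.12.

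Within the lower range these medians were 0.06, 0.07, 0.04 and −0.05, and only 1 member of the 4 lists, a matrix gene, was at an unadjusted p under 0.05. Col1a1, the main chain of type I collagen, shows the layout. It ranged from 2618 to 9032 TPM (median 4289) in running muscles, from 3508 to 5618 TPM (median 4288) in the non-running rats TS5.011 to TS5.024, and from 1669 to 4061 TPM (median 2600) in rats TS5.105 to TS5.128. Its medians were almost equal within the lower range and the upper range stood below both. The difference was 0.50 (0.04 to 0.95) over all muscles and 0.16 (−0.29 to 0.60) within the lower range. The count of 7 matrix genes was 2 without rat TS5.031, 4 without rat TS5.028, 12 without rat TS5.027, 13 without rat TS5.011 and 20 without rat TS5.008. The share of all genes at that level in these 5 fits was 4.08%, 4.08%, 11.2%, 15.1% and 18.5%. The 2 did not always move together, with 9 matrix genes and 6.4% of all genes without rat TS5.032 and 8 matrix genes and 14.8% without rat TS5.023. With median-of-ratios size factors (12.3% of all genes) 5 of 8 fibrillar collagens and 10 of 30 other matrix genes were at that level, and with the low-complexity libraries kept (6.3%) 0 of 8 and 1 of 30.

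The stromelysin Mmp3 and the macrophage elastase Mmp12 had the largest positive differences among protein-coding genes and the same layout. They were singled out for size after their values were seen. Mmp12 ranged from 24.8 to 275 TPM (median 93.6) in running muscles, from 26.2 to 192 TPM (median 83.8) in rats TS5.011 to TS5.024 and from 2.25 to 33.4 TPM (median 23.3) in rats TS5.105 to TS5.128. Mmp3 ranged from 2.64 to 49.2 TPM, from 10.3 to 27.8 TPM and from 1.11 to 6.22 TPM in the same order. Their differences were 1.18 (−0.08 to 2.44) and 1.03 (−0.03 to 2.08) over all muscles, and −0.06 (−1.09 to 0.96) and −0.05 (−0.97 to 0.86) within the lower range.

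Lists of the muscle fiber ran the other way over all muscles and also lay near 0 within the lower range. The adult sarcomere genes had a median difference of −0.22 (1 of 28 lower at an unadjusted p under 0.05) and of −0.02 within the lower range. The muscle stress genes had −0.28 and −0.04, the glycolysis and glycogen genes −0.20 and −0.03, and the neuromuscular junction and denervation genes −0.18 and −0.02. Without rat TS5.031 the medians over all muscles were −0.06 for the adult sarcomere, −0.10 for the muscle stress, −0.06 for the glycolysis and −0.10 for the neuromuscular junction genes. The oxidative phosphorylation subunits, the textbook target of endurance training, had −0.01 over all muscles with 1 of 66 higher and 0.07 within the lower range with 4 higher. The shares of all genes at an unadjusted p under 0.05 were 9.14% and 2.47%, and the 4 were 2 to 5 with 1 muscle left out. Fbxo32, the atrophy ubiquitin ligase atrogin-1, ranged from 16.5 to 166 TPM (median 49.9) in running muscles, from 27.2 to 112 TPM (median 74.8) in rats TS5.011 to TS5.024 and from 102.2 to 312 TPM (median 160) in rats TS5.105 to TS5.128. Its difference was −0.94 (−1.72 to −0.15) over all muscles and −0.31 (−1.14 to 0.51) within the lower range.

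**Figure D3:**
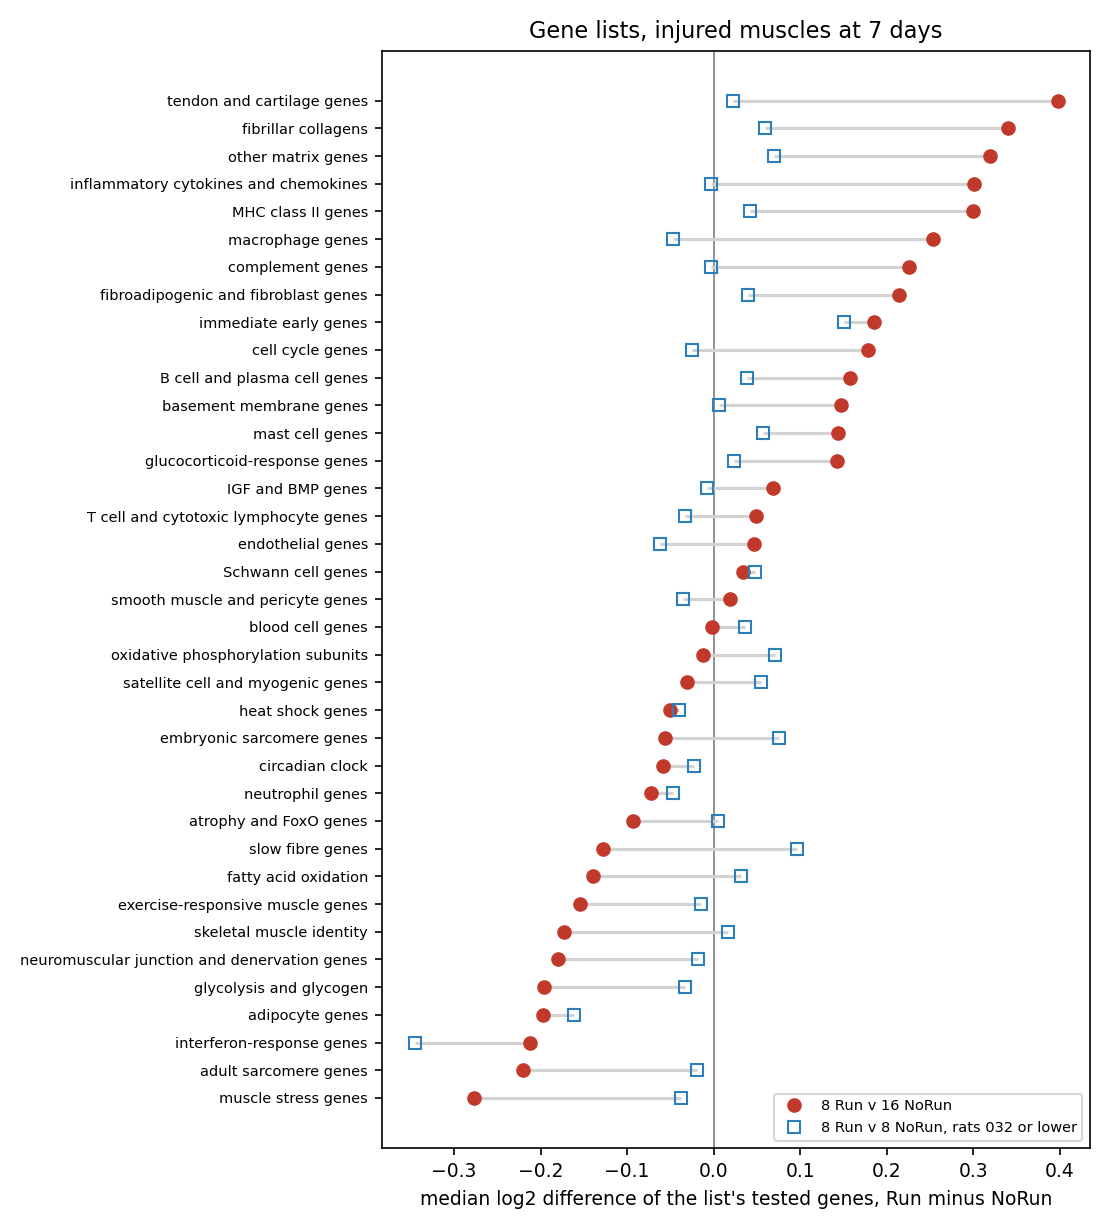
Median log2 difference (horizontal axis, Run minus NoRun) of the tested genes of each of 37 gene lists (vertical axis), over all 24 muscles (filled circles, 8 Run and 16 NoRun) and within the lower range (open squares, 8 and 8). Matrix, macrophage and muscle fiber lists lie near 0 within the lower range, whereas the interferon-response genes go from −0.21 to −0.35.

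The exercise-responsive muscle genes had a median of −0.15. At an unadjusted p under 0.05, 1 of 23 was higher (Sik1) and 3 were lower (Rrad, Fndc5 and Esrra), beside 9.14% of all genes. Within the lower range the median was −0.02 with 1 higher and 1 lower, beside 2.47% of all genes. With 1 muscle left out 0 to 2 were higher (2 without rat TS5.008, 18.5% of all genes) and 1 to 4 lower (4 without rat TS5.023, 14.8%). Rrad, a small GTPase induced by muscle injury and exercise, differed by −0.42 over all muscles and by −0.41 within the lower range. Esrra, a nuclear receptor that drives mitochondrial genes, differed by −0.18 and −0.11. The atrophy and FoxO genes had a median of −0.09 with 3 of 18 lower, the heat shock genes −0.05 with 3 of 14 lower, the fatty acid oxidation genes −0.14 with none of 22, and the slow fiber genes −0.13 with 1 of 12 higher. These 4 medians were 0.00, −0.04, 0.03 and 0.10 within the lower range. With 1 muscle left out the counts of lower genes were 0 to 5 for atrophy and FoxO, 0 to 6 for heat shock and 0 to 4 for fatty acid oxidation. All 3 highest counts were reached without rat TS5.011, where 15.1% of all genes were at that level, against 9.14% with all muscles. The fatty acid oxidation median was −0.05 without rat TS5.031.

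Markers of other cells in the sample were read the same way. The T cell and cytotoxic lymphocyte genes had a median of 0.05 (1 of 25 lower), the B cell genes 0.16 (none of 5), the neutrophil genes −0.07 (1 of 9 higher), the endothelial genes 0.05 (1 of 25 higher), the Schwann cell genes 0.03 (2 of 13 higher) and the adipocyte genes −0.20 (2 of 10 lower). Inflammatory cytokines and chemokines had a median of 0.30 with 3 of 30 higher, complement genes 0.23 with 2 of 24 higher and 1 lower, and cell cycle genes 0.18 with 1 of 39 higher. The cytokine, complement and cell cycle medians were −0.00, −0.00 and −0.03 within the lower range. None of these lists had more than 3 members at an unadjusted p under 0.05 in one direction over all 24 muscles. Without rat TS5.008, where 18.5% of all genes were at that level, 11 cytokine and chemokine genes, 8 cell cycle genes and 6 complement genes were higher. Without rat TS5.031 the medians of these 3 lists were 0.18, 0.09 and 0.09.

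Regeneration genes had medians near 0 in both sets of rats. The satellite cell and myogenic genes had a median difference of −0.03 and the embryonic sarcomere genes −0.06, and 0.05 and 0.08 within the lower range. Pax7, the marker of satellite cells, ranged from 1.68 to 6.77 TPM (median 3.48) in running and from 1.5 to 7.48 TPM (median 4.15) in non-running muscles, a difference of −0.28 (−0.65 to 0.08). Myog, the factor of terminal differentiation, ranged from 142.5 to 489 TPM (median 303) against 131.2 to 645 TPM (median 327), and embryonic myosin Myh3 from 128.4 to 328 TPM (median 208) against 104.6 to 359 TPM (median 215). The intervals of these 2 differences were −0.53 to 0.26 and −0.38 to 0.33. Among further genes of the fibrotic and inflammatory response, Spp1 (osteopontin) differed by 0.36 (−0.72 to 1.44), Ccl2 by 0.62 (−0.09 to 1.33), Cd68 by 0.47 (−0.06 to 1.00) and Acta2 by 0.32 (−0.12 to 0.75).

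The interferon-response genes were the list with the most members at an unadjusted p under 0.05 within the lower range of rat numbers. Over all muscles 8 of 34 were lower in running muscles and none was higher, beside 9.14% of all genes at that level, with a median difference of −0.21 log2 units. Within the lower range 12 of 33 were lower and none was higher, beside 2.47% of all genes at that level in either direction, with a median of −0.35. None was called, and the members respond together, so the count is not a count of separate observations. Rsad2 (viperin), which blocks viral budding, ranged from 1.19 to 8.16 TPM (median 3.00) in running muscles, from 2.49 to 18.1 TPM (median 4.41) in the non-running rats TS5.011 to TS5.024 and from 2.68 to 17.2 TPM (median 7.18) in rats TS5.105 to TS5.128. The high values came from a minority of non-running muscles, those of rats TS5.015, TS5.020, TS5.106, TS5.107 and TS5.128 at 13.3, 18.1, 14.0, 17.2 and 15.4 TPM, while the others lay at 9.06 TPM or lower.

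Ifit3, an antiviral protein of the same program, ranged from 3.13 to 22.6 TPM (median 7.45) in running muscles and from 4.53 to 41.8 TPM (median 12.9) in non-running muscles. Its difference was −0.89 (−1.64 to −0.14), and −0.83 (−1.62 to −0.05) within the lower range. Mx2 ranged from 8.72 to 25.8 TPM (median 15.1) against 11.6 to 51.1 TPM (median 20.4), and the guanylate-binding protein gene Gbp5 from 4.14 to 7.34 TPM (median 5.1) against 4.94 to 13.3 TPM (median 6.86). For all 4 genes the highest running muscle lay below the highest non-running muscle, and the groups overlapped. Mx1 and Mx2, like the Oas genes, are close paralogs between which reads can be divided, so their separate levels are uncertain. The list summed to 774 to 1285 TPM (median 933) in running muscles, to 942 to 1700 TPM (median 1155) in the non-running rats TS5.011 to TS5.024 and to 613 to 1630 TPM (median 949) in rats TS5.105 to TS5.128. The highest and the lowest sum of the 24 muscles both belonged to non-running rats, TS5.020 and TS5.126, and the median of the upper range was close to that of the running muscles.

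The interferon counts rested on single rats. The 12 genes of the lower range became 3 without rat TS5.004, TS5.015 or TS5.020, 4 without rat TS5.024, 5 without rat TS5.028, 6 without rat TS5.007 or TS5.008 and 7 without rat TS5.003, and 19 without rat TS5.012, 22 without rat TS5.031 and 15 to 18 without any of the other 6. The share of all genes at that level was 1.68% to 5.37% in these 16 fits, and 5.37% in the one without rat TS5.031. The list's median lay between −0.42 and −0.21. Over all muscles the 8 genes became 2 without rat TS5.028, 3 without rat TS5.007, 4 without rat TS5.004, TS5.015, TS5.107 or TS5.128 and 5 without rat TS5.003, TS5.008, TS5.020 or TS5.024, 13, 14 and 17 without rats TS5.031, TS5.032 and TS5.126, and 6 to 12 without any of the other 11. The medians lay between −0.28 and −0.17, and 4.08% to 18.5% of all genes were at that level. With median-of-ratios size factors 13 of 34 were lower (12.3% of all genes), and with the low-complexity libraries kept 14 of 34 (6.3%), where the median over all genes was −0.15.

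**Figure D4:**
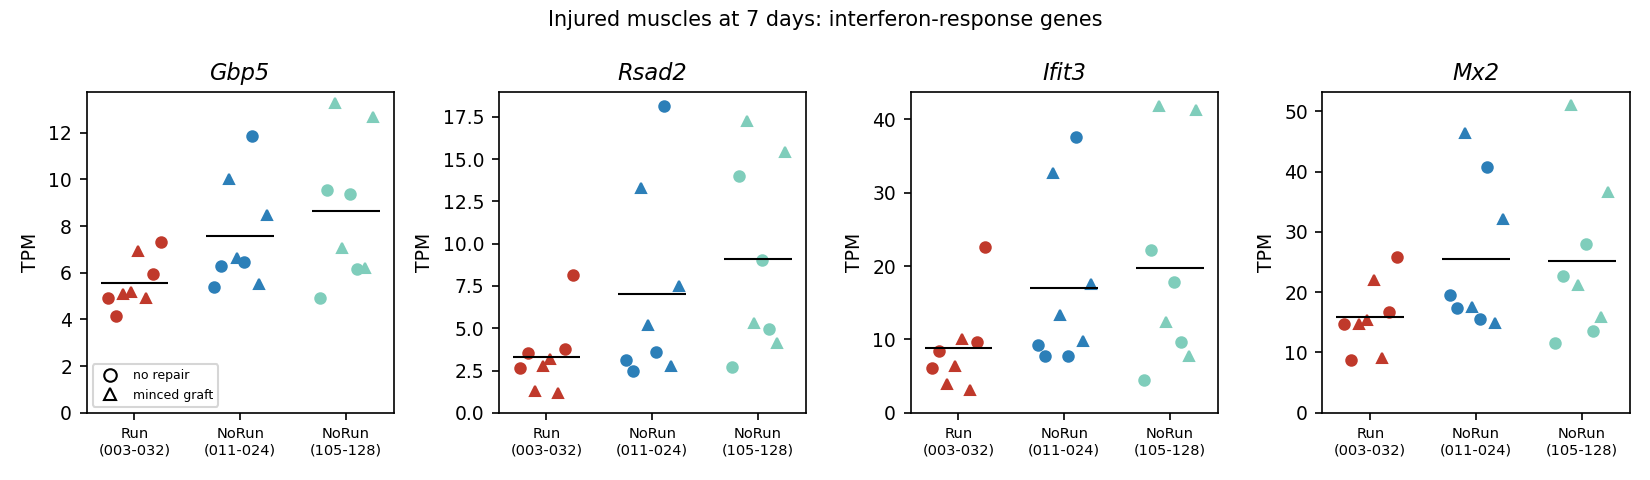
TPM (vertical axis, from 0) of 4 interferon-response genes in the injured muscles at 7 days by running and rat-number range (horizontal axis). Each point is 1 muscle, circles are unrepaired and triangles grafted, and black lines are group means; for Rsad2 the running muscles reach 8.16 TPM and 5 of the 16 non-running muscles exceed 13 TPM.

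The promoters of these genes are shown because interferon acts on them through a short element with a repeated GAAA. The letters GAAANNGAAA were searched on both strands in the 250 bases before the start of each gene (RefSeq, build GRCr8; the expression files used an earlier rat build). They were found in 17 of 26 interferon-response promoters with a sequence available (65.4%), and 0 times in that of Mx1. The share was 3.29% of all promoters (902 of 27457) and 2.68% of those of tested genes (221 of 8240). The list was made of known interferon-response genes, so its share describes the choice of genes and says nothing about running. In the 3 promoters printed here, of the genes whose values are given above and that have a sequence, the match is in capitals and read on the opposite strand. Gbp5 lies at chr2:233910749-233910998 (plus strand), Rsad2 at chr6:48788121-48788370 (minus strand) and Ifit3 at chr1:241527076-241527325 (plus strand).
Gbp5: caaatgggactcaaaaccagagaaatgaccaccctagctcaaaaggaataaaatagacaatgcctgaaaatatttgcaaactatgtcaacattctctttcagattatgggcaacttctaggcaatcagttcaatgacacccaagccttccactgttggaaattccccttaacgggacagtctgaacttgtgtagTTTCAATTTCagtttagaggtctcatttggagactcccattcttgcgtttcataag
Rsad2: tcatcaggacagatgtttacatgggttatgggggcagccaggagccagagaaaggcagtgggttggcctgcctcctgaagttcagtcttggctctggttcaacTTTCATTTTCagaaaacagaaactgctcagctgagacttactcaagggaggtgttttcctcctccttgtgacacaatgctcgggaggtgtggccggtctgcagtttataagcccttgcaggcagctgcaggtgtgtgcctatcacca
Ifit3: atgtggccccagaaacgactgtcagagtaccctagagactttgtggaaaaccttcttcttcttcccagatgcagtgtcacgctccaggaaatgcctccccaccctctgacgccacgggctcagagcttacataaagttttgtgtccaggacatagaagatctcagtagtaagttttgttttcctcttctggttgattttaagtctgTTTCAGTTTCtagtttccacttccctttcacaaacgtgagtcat

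The match begins 56 bases before the start of Gbp5, 147 before that of Rsad2 and 44 before that of Ifit3. A match describes the letters of the window and was not tested as a binding site.

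Immediate early genes, which respond within minutes to stretch, contraction and growth factors, had a median difference of 0.18 over all muscles, with 6 of 24 higher at an unadjusted p under 0.05 and none lower, beside 9.14% of all genes in either direction. Within the lower range the median was 0.15 with 2 higher, beside 2.47% of all genes, and these 2 were 1 to 4 with 1 muscle left out. The 6 over all muscles were 3 without rat TS5.027 (11.2% of all genes) and 4 to 8 with any other muscle left out (4.08% to 18.5%). With the low-complexity libraries kept 0 of 24 were at that level, beside 6.3% of all genes. The list's median was then 0.02, where the median over all genes was −0.15. Klf4 had the lowest p, with 21.5 to 50.5 TPM (median 34.3) in running and 18.6 to 34.2 TPM (median 24.6) in non-running muscles, and a difference of 0.37 (0.12 to 0.62). Its difference within the lower range was 0.21 (−0.06 to 0.49). Btg2, an antiproliferative early gene, had a difference of 0.29 over all muscles and of 0.41 (0.10 to 0.72) within the lower range.

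Single members of 3 related lists had values of the same order. Sik1, a kinase induced by cAMP and exercise, ranged from 7.80 to 17.1 TPM (median 12.4) against 6.95 to 15.1 TPM (median 9.90), with differences of 0.29 (0.07 to 0.52) over all muscles and 0.36 (0.10 to 0.61) within the lower range. The clock gene Per1, which also responds to glucocorticoids, ranged from 9.73 to 23.6 TPM (median 12.5) against 6.18 to 16.7 TPM (median 9.75), with differences of 0.40 (0.10 to 0.69) and 0.47 (0.10 to 0.83). Tsc22d3 (Gilz), a glucocorticoid target that dampens inflammation, ranged from 56.1 to 84.3 TPM (median 72.5) against 50.4 to 79.01 TPM (median 57.6), with differences of 0.26 (0.10 to 0.43) and 0.31 (0.12 to 0.50). All 3 had an adjusted p of 0.523 by limma over all muscles. The clock list as a whole had a median of −0.06, with 1 of 15 (Per1) higher and 2 (Per3 and Tef) lower at an unadjusted p under 0.05. The glucocorticoid-response list, which also holds Per1, had a median of 0.14 with 3 of 16 higher, and of 0.02 with 2 higher and 1 lower within the lower range. The hour at which muscles were taken was not given in the sources used here, and its part in these values was not tested.

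Within the fibroblast and vessel wall lists, single members had negative differences in both sets of rats. Cd34, carried by fibroadipogenic progenitors and endothelium, ranged from 52.8 to 110.2 TPM (median 90.8) in running and from 84.3 to 127.2 TPM (median 101.96) in non-running muscles, and differed by −0.37 (−0.62 to −0.12) and by −0.47 (−0.79 to −0.15) within the lower range. Smooth muscle myosin Myh11 ranged from 10.5 to 20.2 TPM (median 13.1) against 9.62 to 27.2 TPM (median 18.3), with differences of −0.37 (−0.65 to −0.10) and −0.37 (−0.61 to −0.12). The running rats TS5.027, TS5.028 and TS5.032 held the lowest Cd34 values, at 59.7, 56.9 and 52.8 TPM. Cd34 ran against its list, the fibroadipogenic and fibroblast genes, of which 19 of 21 had a positive difference, with a median of 0.21. At an unadjusted p under 0.05, 4 of them (S100a4, Mfap2, Tgfb1 and Id2) were higher and only Cd34 was lower, beside 9.14% of all genes. Within the lower range none was higher and Cd34 was lower, beside 2.47% of all genes. With 1 muscle left out the 4 higher genes were 1 to 7, with 7 reached without rat TS5.008, where 18.5% of all genes were at that level. The list's median was 0.12 without rat TS5.031. The smooth muscle and pericyte list, which holds Myh11, had a median of 0.02 with Myh11 its 1 gene at that level.

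The difference was then taken within each repair group. Without repair (4 against 8 muscles) 1406 genes (12.8%) and with a graft (4 against 8) 149 genes (1.35%) were at an unadjusted p under 0.05, and limma called 0 genes (0%) in either at an adjusted p under 0.05. The difference between the 2 repair groups was tested as an interaction, which called 0 of 11016 genes (0%), with 119 genes (1.08%) at an unadjusted p under 0.05 and a lowest adjusted p of 0.916. Matrix genes outside the fibrillar collagens had a median difference of 0.55 without repair and 0.11 with a graft, and interferon-response genes of −0.07 and −0.45. Over both repair groups these 2 medians were 0.32 and −0.21, and 0.07 and −0.35 within the lower range. Each repair group held non-running muscles of the upper range, and its medians were not taken within the lower range. The muscles without repair included rats TS5.031, TS5.125 and TS5.126, at the 2 ends of the first principal component. Rsad2 differed by −0.38 without repair and by −1.51 with a graft, and its interaction of −1.14 log2 units did not pass the adjusted threshold. These arm values therefore stand side by side without a difference between them having been shown.

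The 3 genes with the largest negative differences were microRNA entries, Mir541, Mir3577 and Mir125b2, singled out for size after their values were seen. TPM of such an entry counts reads on the short precursor gene in a TruSeq library made from total RNA and does not measure the mature microRNA. Mir541 was listed at 0 in 5 of the 8 running muscles and at 2.20, 3.23 and 4.58 TPM in rats TS5.003, TS5.008 and TS5.032. In the non-running muscles it was listed at 0 in rats TS5.019 and TS5.020 and lay between 1.43 and 8.69 TPM in the other 14. Mir125b2 was listed at 0 in 5 running muscles and was at most 4.30 TPM in the others, and it was listed at 0 in 2 non-running muscles and reached 12.03 TPM in rat TS5.023. Their differences were −1.28 and −1.07, and that of Mir3577 was −1.27, with an adjusted p of 0.523 by limma for each.

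The mature sequences from these precursors follow, taken from RefSeq (GRCr8), with the seed (bases 2 to 8) in capitals because the seed sets which messages a microRNA can pair with. The 4 seeds differ from one another, and Mir3577 has no mature sequence in the table.
rno-miR-541-5p: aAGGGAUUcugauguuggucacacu
rno-miR-541-3p: aGUGGCGAacacagaauccauac
rno-miR-125b-5p: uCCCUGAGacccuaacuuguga
rno-miR-125b-2-3p: aCAAGUCAggcucuugggaccu

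Rn7sl1, the RNA of the signal recognition particle, ranged from 12.7 to 274 TPM in running muscles and from 6.66 to 81.1 TPM in the non-running muscles other than rat TS5.011, where it reached 4087 TPM. Its difference of 1.11 had an interval from −0.55 to 2.78, and it was also singled out for size.

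The other leg of the same rats was compared to see whether running moved uninjured muscle. Contralateral TA muscles at 7 days were available from 4 running rats (TS5.003, TS5.004, TS5.007 and TS5.008) and 10 non-running rats, only 2 of which (TS5.015 and TS5.016) were in the lower range. Both legs were fitted together with the rat as a random block, and the correlation within a rat was 0.21. Of 11089 genes, 2 (0.018%) were called, Cpa3 and Tob2, both higher in running rats. At an adjusted p under 0.05 alone there were 10 genes by limma, and 1473 genes (13.3%) were at an unadjusted p under 0.05, with a median difference of 0.10 over all genes. Of the 10 genes, Cpa3, Cma1 and Tpsb2 encode proteases of mast cell granules, and Tob2, Dusp1, Nfkbia and Spry1 are inducible brakes on growth and inflammatory signaling. The other 3 were Entpd2, LOC500300 and Sppl2a. The mast cell list had a median difference of 0.36 in the contralateral leg, beside medians of other lists on both sides of it. Larger medians were 0.57 for the matrix genes outside the fibrillar collagens, 0.54 for blood cell genes, and 0.49 for both adipocyte genes and fibrillar collagens. They also were 0.48 for fibroadipogenic and fibroblast genes, 0.46 for MHC class II genes, 0.45 for macrophage genes and 0.43 for complement genes. The glucocorticoid-response genes, which include Dusp1, had 0.40. Smaller ones included 0.15 for T cell and cytotoxic lymphocyte genes, 0.13 for endothelial genes, 0.08 for smooth muscle and pericyte genes and 0.07 for B cell genes. Their part in the calls was not tested.

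Cpa3 was at 8.83, 3.72, 13.1 and 5.56 TPM in the contralateral muscles of rats TS5.003, TS5.004, TS5.007 and TS5.008, and at 2.32 to 5.1 TPM (median 2.92) in the 10 non-running ones. The value of rat TS5.004 lay inside the non-running range. The difference was 1.01 log2 units (0.60 to 1.42) with an adjusted p of 0.0385. In the injured muscles of the same fit Cpa3 differed by 0.34 (SE 0.15), where the levels were 13.3 to 24.9 TPM in running and 9.51 to 20.1 TPM in non-running muscles. Tob2, which restrains proliferation, was at 32.5, 18.95, 58.5 and 33.2 TPM against 7.97 to 25.7 TPM (median 16.7), a difference of 1.02 (0.68 to 1.36) with an adjusted p of 0.0056. In injured muscle Tob2 differed by 0.03 (SE 0.12).

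How far these calls depended on single muscles was checked by leaving out each contralateral muscle. Tob2 differed by 0.94 (adjusted p = 0.141) without the running rat TS5.003 and by 0.82 (adjusted p = 0.132) without the running rat TS5.007, by limma. Without any 1 of the 10 non-running muscles it differed by 0.93 to 1.14, with adjusted p values of at most 0.0151. Its call was lost without rat TS5.015, TS5.016, TS5.106 or TS5.128 because the difference (0.97, 1.00, 0.93 and 1.00, each just under 1) did not reach the limit on size. Cpa3 differed by 0.87 (adjusted p = 0.486) and 0.75 (adjusted p = 0.442) without rats TS5.003 and TS5.007, and by 0.96 to 1.06 without any 1 of the non-running muscles, with adjusted p values from 0.0228 to 0.0653. In all, 0 genes were called without rat TS5.003, TS5.007, TS5.015, TS5.016 or TS5.106, 1 without rat TS5.105, TS5.107, TS5.108 or TS5.128, 9 without rat TS5.004 and 54 without rat TS5.008. Matrix and fibroblast genes such as Dcn, Col3a1, Postn, Dpt and Pi16, picked out after their values were seen, were among the 54.

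Other settings moved the calls as well. With median-of-ratios size factors Tob2 differed by 0.90 (adjusted p = 0.00196) and Cpa3 by 0.95 (adjusted p = 0.0253), and 27 genes were at an adjusted p under 0.05, but 0 passed the limit on size. With the low-complexity libraries kept, 0 genes were called and the differences were 0.46 and 1.02 (adjusted p = 0.909 for both).

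The difference between the 2 legs was tested directly. It called 0 of 11089 genes (0%), with 800 genes (7.21%) at an unadjusted p under 0.05, and the lowest adjusted p by limma was 0.102, for Tob2 (−0.98, injured minus contralateral). For Cpa3, Cma1 and Tpsb2 the difference between legs had an adjusted p of 0.655. Without the rat as a block, 1 gene was called in the contralateral comparison and 0 in the comparison of legs. Within the lower range 2 genes were called in each, Tob2 but not Cpa3 among those of the contralateral comparison, where the contralateral side rested on 4 against 2 muscles. The difference between legs also called 1 gene, Tob2, without rat TS5.004 or TS5.125.

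Mast cell genes also had positive values in the injured leg. Over all muscles 4 of 9 (Tpsab1, Cma1, Cpa3 and Tpsb2) were higher in running muscles at an unadjusted p under 0.05, with differences of 0.29, 0.35, 0.34 and 0.31, beside 9.14% of all genes in either direction. The count was 3 or 4 with any muscle left out. With the low-complexity libraries kept it was 0 of 8, beside 6.3% of all genes. The list's median was 0.09 with these libraries and 0.14 without them, where the median over all genes was −0.15 and 0.01. Within the lower range these differences were 0.19, 0.13, 0.18 and 0.15, and none was at that level. Cma1 ranged from 24.4 to 43.5 TPM (median 28.4) in running muscles, from 22.9 to 33.97 TPM (median 28.4) in rats TS5.011 to TS5.024 and from 16.65 to 23.03 TPM (median 20.5) in rats TS5.105 to TS5.128. Tpsab1 and Tpsb2 are close paralogs, and their separate values are uncertain.

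**Figure D5:**
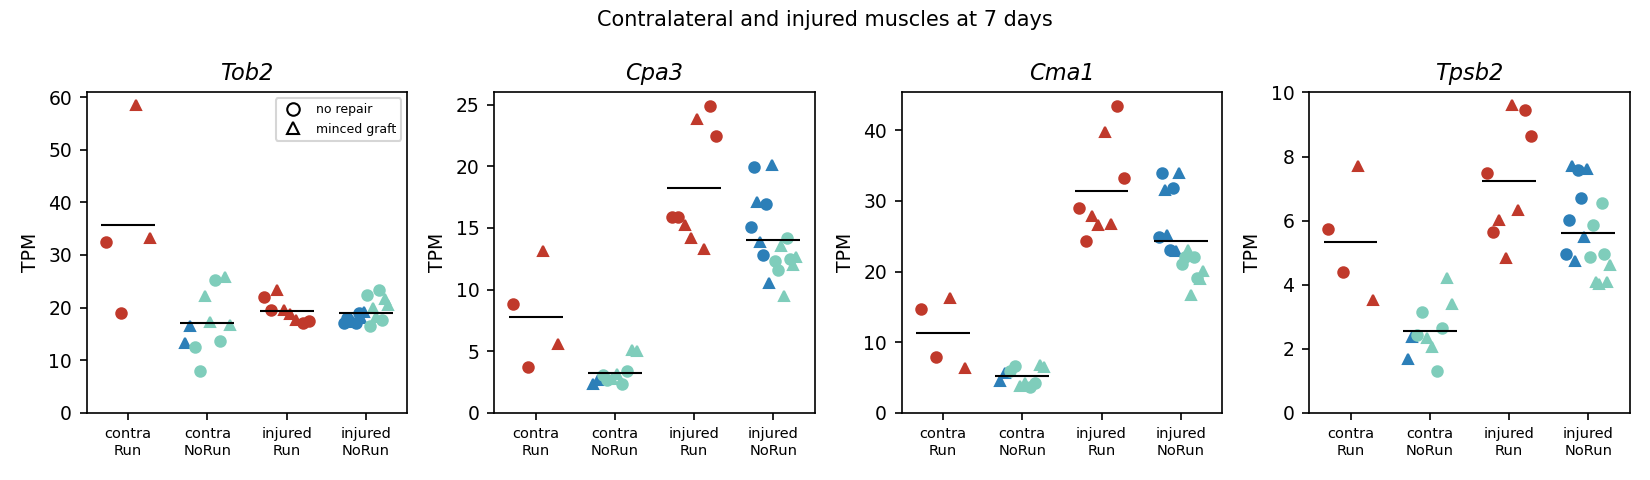
TPM (vertical axis, from 0) of Tob2 and 3 mast cell protease genes in contralateral and injured muscles of running and non-running rats at 7 days (horizontal axis). Each point is 1 muscle, colors are red for running, blue for non-running rats TS5.011 to TS5.024 and green for rats TS5.105 to TS5.128, circles are rats without repair and triangles rats with a graft, and black lines are group means; Tob2 reaches 58.5 TPM in a running contralateral muscle and no more than 23.4 TPM in any injured muscle.

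Injured muscles of other rats were taken at 3 days (14 running, 10 non-running) and 14 days (8 and 8), and share no muscle with those at 7 days. In one fit over the 3 days, limma called 0 of 11211 genes (0%) at 3 days and 0 (0%) at 14 days, with 1490 genes (13.3%) and 532 genes (4.75%) at an unadjusted p under 0.05. At 3 days 12 genes were at an adjusted p under 0.05 without the limit on size. Of these, 10 were tested at 7 days, where 1 (Tpgs1, −0.11) was at an unadjusted p under 0.05. Prima1, which anchors acetylcholinesterase, differed by −0.86 at 3 days and by −0.15 at 7 days, and Ciita, the master regulator of MHC class II genes, by −0.52 and 0.07.

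Whether the difference at 7 days departed from those at 3 and 14 days was tested directly. The interaction of running with day called 0 of 11211 genes (0%) against 3 days, with 433 genes (3.86%) at an unadjusted p under 0.05, and 0 (0%) against 14 days, with 539 genes (4.81%) at that level. The lowest adjusted p values by limma were 0.708 and 0.938. The interferon-response genes had median differences of −0.33 at 3 days, −0.21 at 7 days and 0.00 at 14 days. The MHC class II genes had −0.47, 0.30 and 0.42, and the immediate early genes 0.00, 0.18 and 0.08. These 7-day values include the non-running muscles of the upper range. Within the lower range the 7-day medians of the 3 lists were −0.35, 0.04 and 0.15. At 3 days the running and non-running rats also had unlike shares of low and high numbers. The 3-day and 14-day comparisons were not split by rat number, and a change of these medians over days was not tested. Rsad2 differed by −0.79, −0.94 and −0.12 at the 3 days, and Ctgf by −0.39, 0.74 and −0.02.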

How the data were processed

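The authors isolated total RNA from homogenized TA muscle, prepared TruSeq libraries, quantified paired reads with Kallisto on the rat genome (build 6.0) and deposited a table of TPM values by gene symbol. TPM scales every library to one total, so a gene's value also depends on what else the library holds, ribosomal RNA included. The 16181 symbols used stop before the end of the alphabet with 1 incomplete entry, and later symbols are not analysed here. Of the samples, 9 with conflicting labels were left without a group. Groups came from the labels, and replicates are separate rats.

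Libraries with fewer than 7000 symbols above 1 TPM were left out, and those of one muscle averaged. Genes whose mean exceeded 1 TPM in any of the 4 groups were tested on log2(TPM + 1) by limma 3.58.1 (R 4.3.3), with an intensity trend and repair as covariate, and p values were adjusted after Benjamini and Hochberg over all tested genes. Differences are Run minus NoRun on that scale, which understates those of low genes. To be called, a gene needed an adjusted p under 0.05 with a log2 difference beyond 1. The study's own test takes counts, which were not used here. Each rat gave 1 injured muscle, so the main comparison has no pairs. The fit of both legs had the rat as a random block (statmod 1.5.0). The code was tested on simulated data. Figures used Python 3.11.15 and matplotlib 3.10.9, and promoter and microRNA sequences came from RefSeq.

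The members, gene lists and tests were chosen with earlier results of these data known. Named genes are the 10 with the lowest p in each direction (no gene was called), up to 4 with the lowest p in each list, genes discussed in the paper, and those past an adjusted p of 0.05 in another comparison. Genes with the largest differences or spread were added after their values were seen. Alternatives changed the pseudocount, filter, scaling, libraries, covariates, samples and weights, and left out each muscle in turn. Leaving out muscles for the gene lists and for the contralateral leg was chosen after seeing the data.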

Additional observations from a re-analysis of the deposited data

Results flagged for a closer look

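In the 20 genes with the lowest p, each group of 4 or 8 muscles was searched for a muscle far from the rest, and 5 of 80 combinations of gene and group held one, where chance gives about 1 in 20. Sertad3 was at 11.74 TPM in rat TS5.020 and at 8.31 to 9.87 TPM in the other 7 non-running muscles without repair. Rps4x was at 2043 TPM in rat TS5.031 and at 1452 to 1507 TPM in the other 3 running muscles without repair. Pomgnt2 was at 9.64 TPM in rat TS5.011, with 12.49 to 14.76 TPM in the rest of its group, and at 16.77 TPM in rat TS5.107, with 10.87 to 13.59 TPM in the rest of the non-running grafted muscles. Poll was at 21.49 TPM in rat TS5.011 and at 25.74 to 28.44 TPM in the others of its group. Rat TS5.011 is also the library with the most ribosomal RNA among those kept, and the part of this in its values was not tested.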

How the results depend on the processing

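No alternative called a gene in the comparison of injured muscles. The count at an unadjusted p under 0.05 was 1007, and became 273 within the lower range of rat numbers, 377 with the range as covariate, 1640 with all injured muscles in one fit, 1850 with array weights and 1659 without rat TS5.011, with 448 to 2047 over the 24 fits that left out 1 muscle each. The causes were not tested. With low-complexity libraries kept it was 688, and the median difference of all genes moved to −0.15. Of 50 named genes, 38 kept their sign within the lower range and all 20 with the lowest p did, although these fits share muscles. The comparison of repair groups called 0 genes in every alternative run. In contralateral muscle the 2 called genes became 15 with a pseudocount of 0.1 TPM, 1 with no filter, 0 with size factors (where 27 were at an adjusted p under 0.05 but under the limit on size, against 10), 0 with low-complexity libraries kept, 1 with no replicate block, and 0 to 54 with 1 contralateral muscle left out. In the comparison of legs, 0 called genes became 2 within the lower range and 0 to 1 with 1 contralateral muscle left out. Depth, unknown per library, limits entries near 0 TPM.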
